A study of Homo sapiens with 6 samples.

Results

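Chemokines and interleukins are small secreted proteins that call in and activate immune cells. CXCL1, CXCL2 and CXCL8 (interleukin 8) attract neutrophils through the receptor CXCR2, CCL2 attracts monocytes and CCL20 attracts cells that carry CCR6. IL1A and IL1B both act on the interleukin 1 receptor, which switches on NF-kB, a transcription factor that in turn activates the genes of most of these proteins, and IL6 signals through IL6ST (gp130). Ovarian cancer cells commonly secrete several of them.

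The genes described here are 8 cytokine genes of the 20046 named on the array, measured by 9 of its 47231 probes and listed by probe identifier: CXCL1, CXCL2, CXCL8 with a pair of probes, IL6, IL1A, IL1B, CCL2 and CCL20. The array annotation gives all 9 probes the gene named in the list, and it gives these genes no other probe. The samples were 3 of untreated cells of the established human ovarian cancer line HeyA8 and 3 of the same parental cells after magnetic fluid hyperthermia (MFH), in which magnetic particles are heated by an alternating magnetic field, with 1 Illumina bead array each. The dose of heat and the time of harvest are not given in the sources used here, and no sample had particles or field alone. Nothing in the labels tells whether the 3 replicates of a group were grown apart. Each p-value thus reflects sample-to-sample spread that could be technical alone. The genes were chosen by a list drawn up with the MFH minus untreated log2 changes of these same arrays known. The changes of the 9 probes are therefore a description and carry no test.

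The arrays were of like brightness, with median raw intensities of 103 to 114 in untreated cells and 102 to 127 after MFH. A probe counted as above background if it exceeded a limit set on each array from its dimmest probes, which lay at 106 to 116 on the untreated and 105 to 129 on the MFH arrays. Of 16 tested probes for chaperone genes listed as a check of the treatment, 12 rose and 0 fell in the limma fit. These counts stand beside 5.7% and 6.58% of all tested probes, and the list was chosen with earlier results of these data known. At an unadjusted p under 0.05, 1 of the 16 was lower. Whether heat, particles or field raised the 12 was not tested. For HSPA6, an inducible HSP70 chaperone, probe ILMN_1806165 rose by 5.81 ± 0.15 (SE) on the log2 scale (limma adjusted p = 4.0e-12). DNAJB1, an HSP40 co-chaperone, rose by 3.14 ± 0.11 (limma adjusted p = 1.5e-10). The tumour line was marked by PAX8, a transcription factor of ovarian carcinoma, and KRT8, a keratin, above background on all 6 arrays. Of the 13 probes for 7 epithelial and ovarian marker genes, 9 were above background on all 6 arrays and 1 on none. No probe of the pan-leukocyte gene PTPRC was above background on more than 1 array, and CD3E, VWF and COL3A1, which mark T cells, endothelium and fibroblasts, were at background on all 6. Other markers were detected: 3 leukocyte probes, all of CD68, 1 endothelial probe (CDH5) and 1 fibroblast probe (COL1A1) were above background on all 6 arrays. Of the leukocyte, endothelial and fibroblast marker probes, 16 of 30 were above background on no array, and in the limma fit 0 were called lower and 1, of COL1A1, higher. The leukocyte probes ITGAM (ILMN_1685009) and CD14 (ILMN_2396444) were higher at an unadjusted p under 0.05, with log2 changes of 0.76 ± 0.29 and 0.55 ± 0.17 (SE). Their summed raw intensities were 3698 to 4624, 379 to 453 and 1073 to 1166 in untreated cells, and 4138 to 5988, 408 to 585 and 1095 to 1330 after MFH. Their part in the results was not tested.

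CXCL8, CXCL1 and CXCL2 lie in one chemokine cluster on chromosome 4, and IL1A and IL1B are next to each other on chromosome 2. The 250 bases before the start of 4 of the genes, from RefSeq on GRCh38.p14, are shown. All 4 were picked because they hold an NF-kB type motif, and CXCL1 and CXCL2 share a stretch of promoter. Capitals mark matches to the letters GGNNTTTCC on either strand.
CXCL2, chr4:74099196-74099445, minus strand: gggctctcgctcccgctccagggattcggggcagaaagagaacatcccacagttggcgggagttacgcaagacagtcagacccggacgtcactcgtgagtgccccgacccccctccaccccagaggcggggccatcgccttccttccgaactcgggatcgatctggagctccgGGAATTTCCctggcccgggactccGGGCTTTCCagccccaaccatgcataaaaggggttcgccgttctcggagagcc
CXCL1, chr4:73869143-73869392, plus strand: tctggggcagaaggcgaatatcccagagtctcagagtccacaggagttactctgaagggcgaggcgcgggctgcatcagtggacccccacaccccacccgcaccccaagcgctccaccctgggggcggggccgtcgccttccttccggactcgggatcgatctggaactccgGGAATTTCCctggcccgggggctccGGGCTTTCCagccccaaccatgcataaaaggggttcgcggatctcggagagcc
CXCL8, chr4:73740319-73740568, plus strand: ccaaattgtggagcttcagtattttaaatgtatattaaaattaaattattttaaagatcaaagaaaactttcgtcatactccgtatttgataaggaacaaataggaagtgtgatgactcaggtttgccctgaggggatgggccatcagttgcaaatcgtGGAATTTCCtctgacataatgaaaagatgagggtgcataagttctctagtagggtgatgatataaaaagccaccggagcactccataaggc
IL6, chr7:22726950-22727199, plus strand: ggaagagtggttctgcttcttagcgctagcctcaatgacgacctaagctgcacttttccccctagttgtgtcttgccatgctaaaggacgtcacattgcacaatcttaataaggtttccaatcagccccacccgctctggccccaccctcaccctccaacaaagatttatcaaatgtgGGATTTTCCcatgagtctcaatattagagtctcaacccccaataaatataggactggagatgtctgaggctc

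CXCL2 and CXCL1 carry the same 2 matches, GGAATTTCC and GGGCTTTCC, beginning 77 and 53 bases before the start in CXCL2 and 78 and 53 in CXCL1. Their promoters share an unbroken run of 42 bases that covers the second match and the TATA-like stretch. Of the 7 genes matched to a promoter, 5 held GGNNTTTCC: CXCL1, CXCL2, CXCL8, IL6 and CCL20. IL1A and IL1B did not hold it, and CCL2 was not matched to a promoter. GGNNTTTCC occurs in 5.48% of the 35116 promoter windows of the same length. Of the other motifs searched, the AP-1 type TGANTCA was found in CXCL8 and IL1A (6.57% of all windows), the C/EBP type TTGCNNAAT in IL6 and IL1B (2.39%) and the heat shock element type GAANNTTC in IL1B alone (5.78%). These are matches of letters, and the motifs were chosen with knowledge of these genes.

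The 9 probes did not move as one. In the limma fit across all tested probes 4 of them were called lower after MFH at an adjusted p under 0.05, those of CXCL2, IL1B and IL1A and 1 of the pair for CXCL8, beside 6.58% of all tested probes called lower. The other 5, of CXCL1, IL6, CCL2, CCL20 and the second CXCL8 probe, were not called. All 9 log2 changes were negative, as were 52% of those of all tested probes, and 1 of the 9, for CCL2, was measured at background. The median log2 change over the 9 probes was -0.42, against -0.01 over all tested probes. Of the 9, 8 exceeded the median level required for testing, and CCL2 did not. All MFH values lay below all untreated values for the same 4 probes, as they did for 15.8% of all tested probes. Since the MFH comparison had a part in choosing the genes, nothing is read from these counts. In RNA from whole cultures, fewer cells making a cytokine and less of its RNA per cell cannot be told apart.

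**Figure D1:**
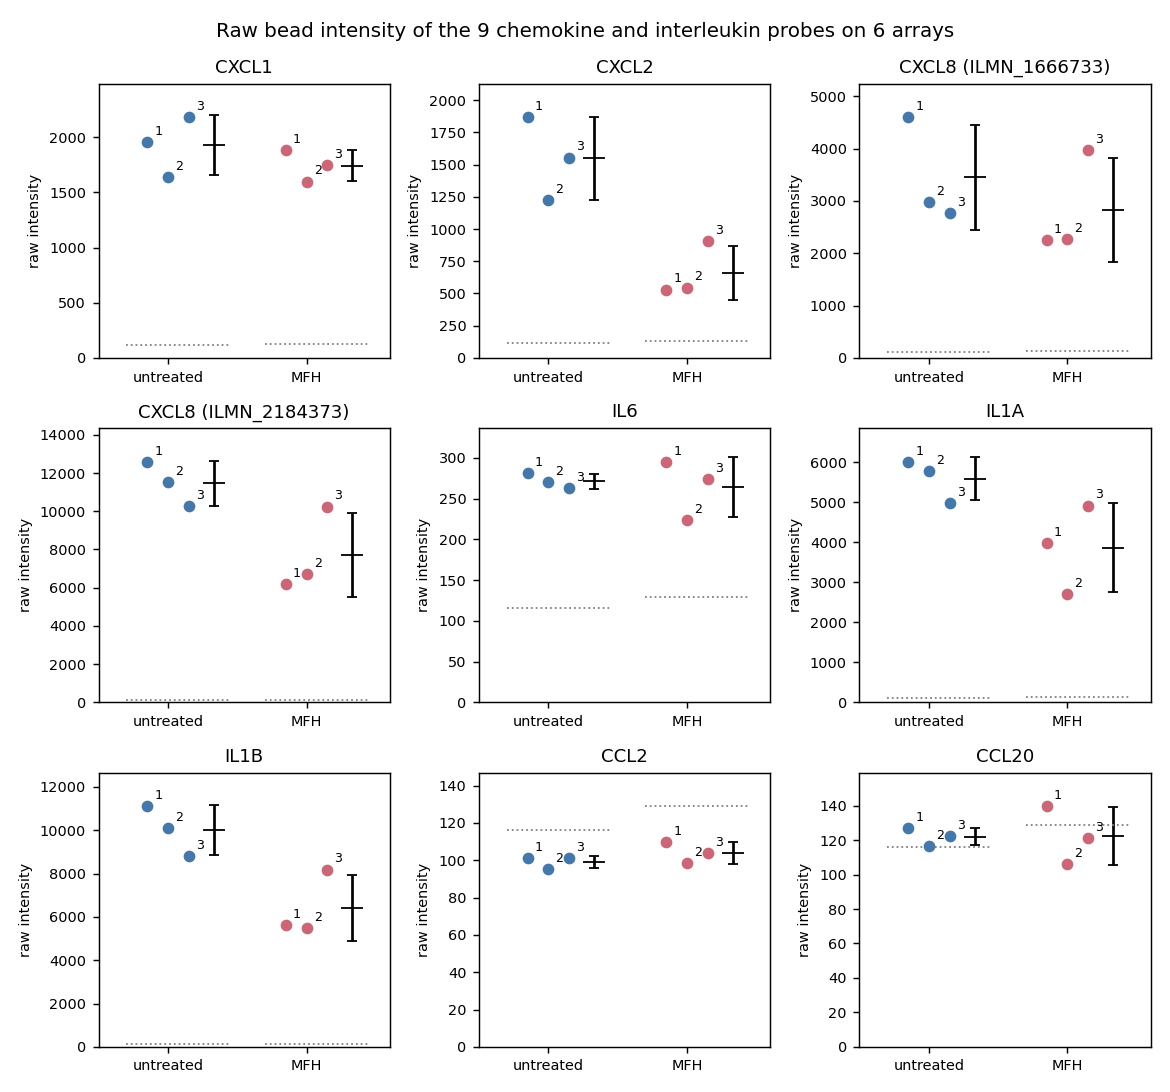
Raw bead intensity (linear axis from 0) of each of the 9 probes on the 3 untreated and 3 MFH arrays. Points are arrays labelled by replicate number, black marks are the mean and SD, and the dotted line is the highest background limit of the group; the groups separate for CXCL2, IL1A, IL1B and CXCL8 probe ILMN_2184373, and CCL2 lies under the line on every array.

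Among the neutrophil-attracting chemokines CXCL2 differed most. Probe ILMN_1682636 read 1867, 1225 and 1554 on untreated arrays 1, 2 and 3, and 530.2, 545 and 904 on MFH arrays 1, 2 and 3. All MFH values were below all untreated values, and MFH array 3 was the highest of its group. The normalised log2 level was 10.58 ± 0.13 before and 9.22 ± 0.55 after treatment (SD, n = 3 each). The log2 change was therefore -1.36 ± 0.20 (SE), and the level was 2.57-fold lower. Of the 23615 tested probes 1 had a more negative change. CXCL2 kept its call under all 16 alternatives in processing and left-out arrays, with log2 changes of -1.63 to -1.08. The alternatives refit the same arrays, and the member probes were chosen with these changes known. A kept call of a member, here and below, is therefore description only.

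CXCL1, the closest relative of CXCL2 among these genes, had a smaller measured difference. Probe ILMN_1787897 read 1959, 1641 and 2181 on untreated arrays 1 to 3 and 1886, 1598 and 1745 on MFH arrays 1 to 3. The groups overlapped, with the highest MFH reading above the lowest untreated one. The log2 change was -0.22 ± 0.11 (SE), 1.17-fold lower, and it was not called; 14.3% of tested probes had a more negative change. Set against CXCL1 array by array, the change of CXCL2 minus that of CXCL1 was -1.55, -1.24 and -0.64 (log2) on MFH arrays 1, 2 and 3. The mean difference was -1.14 ± 0.46 (SD over the 3 MFH arrays). Any part of the promoters printed above in this difference was not tested. The probe sequences were not used here, so whether either probe also binds the other gene's RNA was not tested.

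The probes for CXCL8 both had lower means after MFH, but only 1 of them separated the groups. Probe ILMN_2184373 read 12589, 11509 and 10267 in untreated cells and 6192, 6731 and 10246 after MFH. MFH array 3 lay just below the lowest untreated array, and MFH arrays 1 and 2 lay far below it. The log2 change was -0.76 ± 0.19 (SE), 1.69-fold lower. Without MFH replicate 1 it was -0.50 and without untreated replicate 2 it was -0.63, and in both cases the call was lost. It was also lost with median scaling, with an offset of 16 and with a variance model that follows the level and guards against outlying probes, called trend and robust eBayes (log2 changes of -0.76 to -0.65).

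The second CXCL8 probe, ILMN_1666733, read 4599, 2978 and 2767 in untreated cells and 2244, 2272 and 3977 after MFH. Here the groups overlapped, since MFH array 3 exceeded 2 of the untreated arrays. Its log2 change of -0.42 ± 0.22 (SE) was not called. Without MFH replicate 3 it was -0.70 and was called, and without MFH replicate 1 it was -0.14. The change of ILMN_2184373 minus that of ILMN_1666733 was -0.31, -0.26 and -0.45 on MFH arrays 1, 2 and 3, so the pair differed in size while keeping the same order of arrays.

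The interleukin 1 genes were the second group with lower values. IL1B, the secreted form made by inflammatory cells and many tumour lines, read 11108, 10100.1 and 8811 in untreated cells and 5639, 5466 and 8185 after MFH at ILMN_1775501. The groups did not overlap, and MFH array 3 again came nearest to the untreated arrays. The log2 change was -0.83 ± 0.18 (SE), 1.78-fold lower, and it kept its call without any single array (-1.01 to -0.63). The call was lost with trend and robust eBayes.

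IL1A, a form that acts largely within the cell or from its surface, read 6013, 5779 and 4986 in untreated cells and 3979, 2698 and 4920 after MFH at ILMN_1658483. The groups were separated by the small gap between untreated array 3 and MFH array 3. The log2 change was -0.70 ± 0.17 (SE), 1.63-fold lower. It lost its call without MFH replicate 1 (-0.61), without MFH replicate 2 (-0.58) and without untreated replicate 2 (-0.55). It was also lost under the same 3 settings as that of the CXCL8 probe (-0.71 to -0.62). The changes of IL1B and IL1A differed by -0.37, 0.14 and -0.15 on MFH arrays 1, 2 and 3, with no common sign.

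IL6, the ligand of the gp130 pathway, was dim but above background on all 6 arrays. Probe ILMN_1699651 read 281, 271 and 263 in untreated cells and 295, 224 and 274 after MFH. The raw MFH readings spanned the untreated ones. By normalised log2 level the groups overlapped, at 7.79 to 8.13 in untreated cells and 7.72 to 7.82 after MFH. The log2 change was -0.13 ± 0.11 (SE), which was not called. Leaving out 1 array at a time gave -0.19 to -0.02, the smallest without untreated replicate 2. With an offset of 16 in place of 50 the change was -0.15.

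The CC chemokines were at or near background. CCL20 read 127, 117 and 123 in untreated cells and 139.6, 106 and 121 after MFH at ILMN_1657234, above the background limit on 5 of the 6 arrays, and its log2 change of -0.16 ± 0.10 (SE) was not called. CCL2 read 101, 95.4 and 101 in untreated cells and 109.8, 98.3 and 104 after MFH at ILMN_1720048, below the limit on all 6 arrays, so no fold is given. A change of CCL2 was not detectable at this signal.

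**Figure D2:**
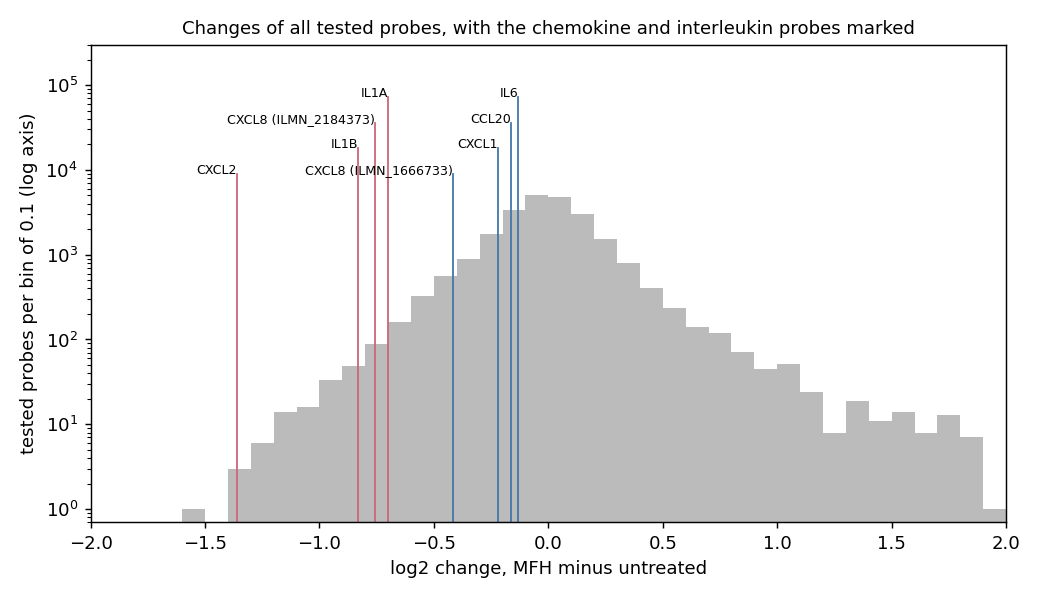
Number of tested probes (log axis) per bin of 0.1 in log2 change, MFH minus untreated, between -2 and 2; larger rises lie beyond the right edge. Vertical lines mark the 8 tested chemokine and interleukin probes, red if called lower and blue if not called; CXCL2 lies at the far left, with IL1B, CXCL8 (ILMN_2184373) and IL1A between -0.83 and -0.70.

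The size of the difference varied between MFH arrays, in an order that only some of these genes shared. Relative to the untreated mean, CXCL2 stood at -1.93, -1.34 and -0.82 on MFH arrays 1, 2 and 3, and IL1B at -1.25, -0.79 and -0.45. CXCL8 stood at -1.29, -0.69 and -0.30 by ILMN_2184373 and at -0.98, -0.43 and 0.16 by ILMN_1666733. IL6 had the same order within a narrower range. IL1A was at -0.88, -0.93 and -0.29 and CXCL1 at -0.38, -0.10 and -0.18, with other orders, and CCL20 ran the opposite way at -0.06, -0.15 and -0.27. By normalised level, MFH array 1 was the lowest MFH array for 6 of the 7 probes above background on all 6 arrays. MFH array 3 was the highest for 6 of these 7, and for all 4 called lower. By raw reading, MFH array 2 was the lowest for CXCL1, IL6, IL1A and IL1B, and MFH array 1 the highest for CXCL1 and IL6. Among all 1555 probes called lower, MFH array 3 was the highest MFH array for 42.7% and MFH array 1 the lowest for 39.1%. These 7 probes share the same 3 arrays and are not independent, and the order was not tested. Without MFH replicate 3, 5 of the 9 probes were called lower and the change of CXCL2 was -1.63. Without MFH replicate 1, 2 of the 9 were called and CXCL2 was at -1.08. Of all 23615 tested probes, 1398 were called lower without MFH replicate 3 and 1245 without MFH replicate 1.

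HSPA6 and DNAJB1, the heat shock genes named above, differed in their order over the same arrays. The HSPA6 probe ILMN_1806165 had log2 levels of 14.35, 14.18 and 13.69 on MFH arrays 1, 2 and 3, so that array 3 was the lowest. DNAJB1 had 14.10, 14.33 and 14.38, so that array 3 was the highest. The order for the other chaperone genes of the check is not described here.

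**Figure D3:**
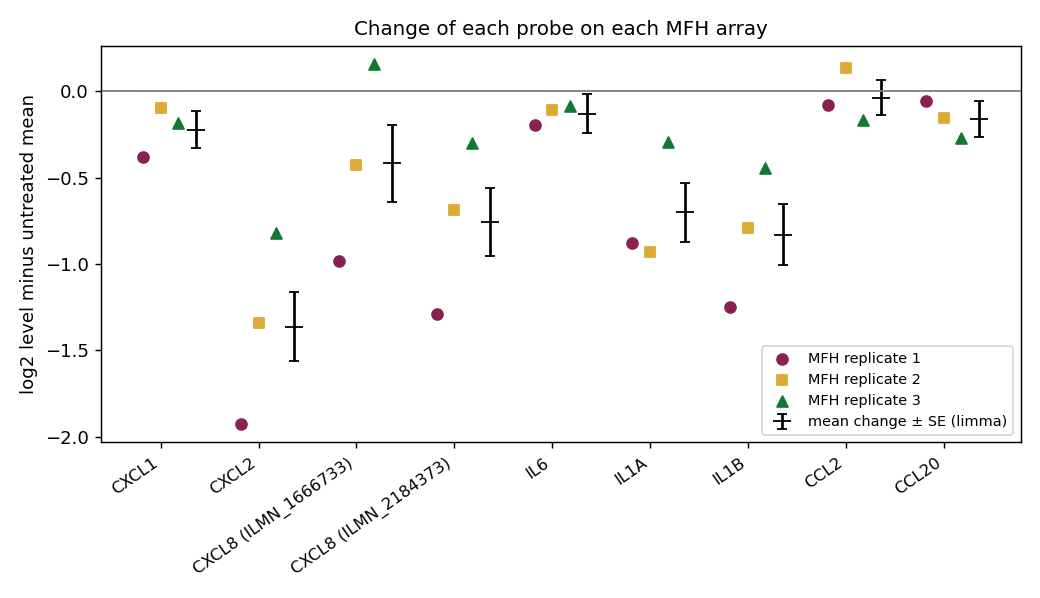
Log2 level of each of the 9 probes on MFH replicates 1, 2 and 3 minus the mean of the 3 untreated arrays (0 line), with the limma mean change and its SE in black. For CXCL2, CXCL8 and IL1B the order is replicate 1, 2, 3 from the most to the least negative; CXCL1, IL6, CCL2 and CCL20 lie within 0.4 of the line.

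Other chemokines gave little signal. Of 24 probes for 17 further chemokine genes, 12 were above background on no array and 2 on all 6. None of the 7 tested probes was called in limma, and 1, of CXCL16, was higher at an unadjusted p under 0.05 (log2 change 0.24 ± 0.11, SE). CXCL3, which lies beside CXCL2 on chromosome 4 and binds the same receptor, read 101 ± 7.5 without treatment and 114 ± 13 with it (SD, n = 3 each) and was above background on no array. The probes for CXCL5 and CXCL6, also of the chromosome 4 cluster, were above background on at most 2 arrays.

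Among other cytokines CSF3, TNF and IL12A changed. Of 14 tested probes 3 fell and 1 rose, beside 6.58% and 5.7% of all tested probes. CSF3, the growth factor of neutrophils (G-CSF), fell at 2 of its 3 probes. The third, ILMN_1706852, was above background on 1 array and was not tested. ILMN_2322768 read 611, 427 and 441 in untreated cells and 187, 219 and 349.8 after MFH, a log2 change of -1.17 ± 0.23 (SE, limma adjusted p = 0.0039). ILMN_1697069 changed by -1.20 ± 0.31 (SE, limma adjusted p = 0.019). The groups did not overlap at either of these probes, and MFH array 3 was the highest of its group at both. Without MFH replicate 1 the change of ILMN_1697069 was -0.70. The call of ILMN_1697069 was lost without untreated replicate 1 and with an offset of 16, and the calls of both were lost with trend and robust eBayes.

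TNF, the cytokine that with interleukin 1 is a main activator of NF-kB, fell by 0.46 ± 0.12 on the log2 scale (limma adjusted p = 0.018). Its call was lost with median scaling or an offset of 16, without either MFH replicate 1 or 2 and without either untreated replicate 2 or 3. IL12A, the p35 subunit of interleukin 12, rose by 0.46 ± 0.13 (limma adjusted p = 0.034), a call lost with median scaling or an offset of 16, without MFH replicate 1 or 3 and without untreated replicate 1 or 3. IL18, an interleukin 1 family member, IL11 and LIF, both gp130 ligands, were above background on all arrays and were not called, with log2 changes of -0.10 ± 0.11, -0.20 ± 0.10 and -0.22 ± 0.12 (SE).

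Of 15 tested probes for receptors of these cytokines 1 fell and 0 rose in limma, with 2 higher at an unadjusted p under 0.05. This 6.67% called lower was near the 6.58% of all tested probes. The probe that fell was of TNFRSF1A, the main TNF receptor. It read 3761, 2951 and 3835 in untreated cells and 1989, 1560.1 and 1906 after MFH, with no overlap. Its log2 change was -1.07 ± 0.10 (SE, limma adjusted p = 1.1e-05), 2.10-fold lower, and it was called without any single array. IL6R, CXCR1 and IL1R2 were at background at all of their probes, and the single probe of IL1R1 was above background on 1 array, so changes of these receptors were not detectable. The brightest of the IL6ST probes, ILMN_1849013, had a log2 change of 0.31 ± 0.10 (SE, limma adjusted p = 0.070).

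A further list held genes of the NF-kB pathway, which includes both activators and inhibitors. Of 25 tested probes 10 fell, for 9 genes, and 1 rose, beside 6.58% and 5.7% of all tested probes. This list, like the others, was chosen with earlier results of these data known, so nothing is read from its count. NFKB2 and RELB, the subunits of the alternative NF-kB dimer, fell by 1.01 ± 0.10 (ILMN_1799062, limma adjusted p = 1.5e-05) and by 0.65 ± 0.14 (limma adjusted p = 0.0061) on the log2 scale. The second NFKB2 probe, ILMN_2390859, fell by 0.88 ± 0.14. NFKB1, the precursor of the p50 subunit, fell by 0.53 ± 0.12 (limma adjusted p = 0.0081). RELA, the main activating subunit, was not called, with a log2 change of -0.09 ± 0.15 (SE).

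Several of the NF-kB genes that fell encode inhibitors that NF-kB itself induces. NFKBIA and NFKBIE, which hold NF-kB in the cytoplasm, fell by 0.47 ± 0.12 and 0.49 ± 0.11 on the log2 scale (limma adjusted p = 0.017 and 0.0095). TNIP1, a partner of the inhibitor TNFAIP3, fell by 0.60 ± 0.12, while TNFAIP3 was not called, at -0.21 ± 0.11. NFKBIZ, a nuclear co-factor needed for IL6 expression in mouse macrophages, fell by 0.57 ± 0.14 at ILMN_1719695. IRAK2, a kinase of the interleukin 1 receptor pathway, fell by 0.56 ± 0.14, and ICAM1, an adhesion molecule, fell by 0.48 ± 0.13. TRAF6, the ubiquitin ligase downstream of IRAK2, rose by 0.37 ± 0.10 at 1 of its probes. Without MFH replicate 1 the list had 6 probes called lower, and with median scaling in place of quantile normalization 4. The calls of NFKB2, at both probes, RELB and TNIP1 held under all 16 alternatives. That of NFKB1 held under 15 and that of NFKBIE under 14. Those of NFKBIA and NFKBIZ held under 12 each, and those of IRAK2 and ICAM1 under 11 each. The rise of TRAF6 was not called with median scaling, without MFH replicate 3 or without untreated replicate 1 or 3.

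Of 21 tested probes for transcription factors and mRNA decay factors that act on cytokine genes 3 fell and 0 rose in limma. At an unadjusted limma p under 0.05, 6 were lower, the 3 called among them, and 3 were higher. The 14.3% called lower stood beside 6.58% of all tested probes. JUNB and FOSL1, subunits of AP-1, fell by 0.71 ± 0.17 and 0.48 ± 0.10 on the log2 scale (limma adjusted p = 0.011 and 0.0043). ZFP36, which speeds the decay of TNF and other cytokine mRNAs, fell by 0.38 ± 0.10 (limma adjusted p = 0.026). Of the 16 alternatives, the call of ZFP36 held under 10, that of JUNB under 14 and that of FOSL1 under 15. Without MFH replicate 1 or 2 only 1 probe of this list was called lower, and without MFH replicate 3 there were 5. HSF1, the heat shock transcription factor, had a log2 change of -0.41, and CEBPB, which binds the IL6 promoter, one of -0.28; neither was called.

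**Figure D4:**
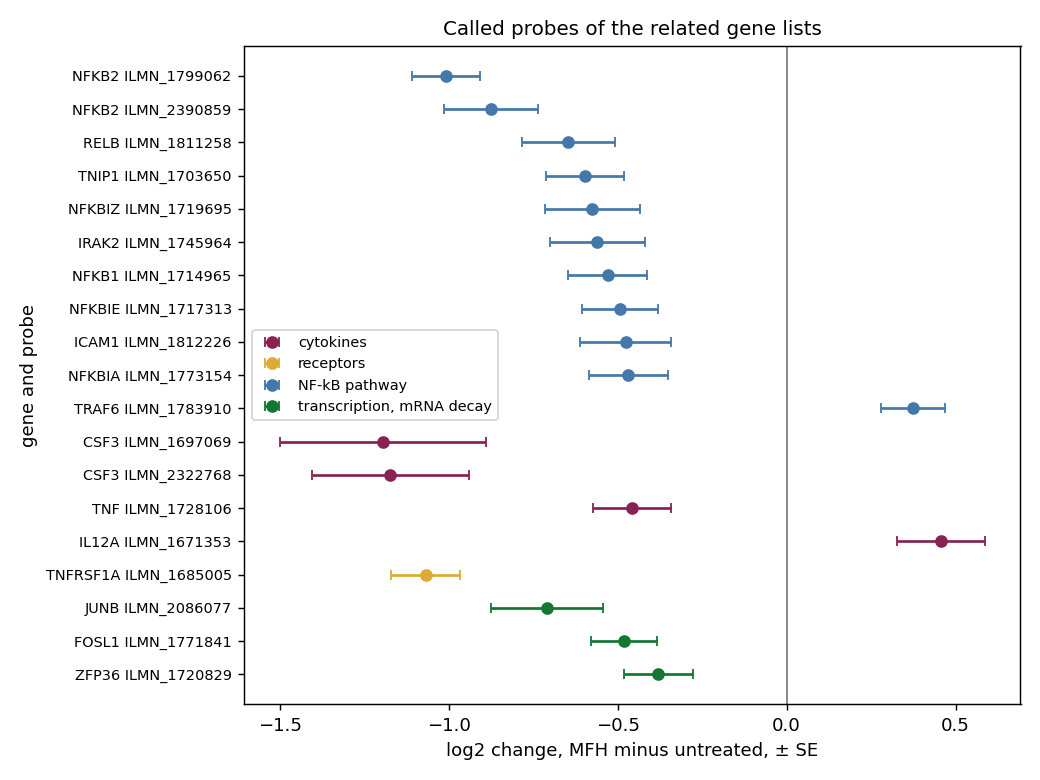
Log2 change, MFH minus untreated, with its SE for each called probe of the lists of other cytokines, receptors, NF-kB pathway, and transcription and mRNA decay factors (3 arrays per group). All but TRAF6 and IL12A lie below 0; NFKB2, TNFRSF1A and CSF3 lie near or below -1.

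The order of the MFH arrays seen for CXCL2 recurred in these lists. By normalised level, of their 17 probes called lower MFH array 3 was the highest MFH array for 15 and MFH array 1 the lowest for 15. These counts stand beside the 42.7% and 39.1% given for all probes called lower. NFKBIA, for example, had log2 levels of 12.16, 12.46 and 12.61 on MFH arrays 1, 2 and 3, RELB 8.30, 8.68 and 8.93, and JUNB 8.19, 8.27 and 8.99. The untreated levels of the same genes lay between 12.85 and 12.92, 9.20 and 9.33, and 9.15 and 9.28. The 17 probes share the arrays, and the order was not tested. Of 11 tested probes for epithelial and ovarian markers 3 fell, of the genes PAX8 and KRT8 alone, and 0 rose. These counts stand beside 6.58% and 5.7% of all tested probes. The other 8 were not called, with 2 higher at an unadjusted p under 0.05. PAX8 fell by 0.64 ± 0.10 (ILMN_1708534) and 0.61 ± 0.12 (ILMN_2319292) on the log2 scale, and its remaining probe, ILMN_1656563, was not called. KRT8 fell by 0.34 ± 0.10, a call that held under 7 of the 16 alternatives. The part of these markers in the result was not tested.

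Over the 6 arrays the genes whose profile was most like that of CXCL2, among 17185 tested probes with 1 gene symbol, were SNHG8, ZNFX1, OR56B1, WDR5 and USP37, with Pearson r of 0.995 to 0.999. Their log2 changes were -0.37, -0.65, -0.25, -0.49 and -0.26, each smaller than that of CXCL2. For IL6 they were FBXO17, SF3B5, H1-1, LAX1 and ALPI, with r of 0.985 to 0.992, and none of these 5 was called. With 6 arrays in 2 groups, and the best of many probes chosen, such values of r are a description only.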

How the data were processed

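Total RNA of 3 untreated and 3 MFH-treated HeyA8 samples was labelled with biotin and hybridised to 1 array each. The deposited table holds average bead intensities on a linear scale, exported with BeadStudio per the submitters' processing notes and not normalized per the file headers. The deposited series matrix holds the authors' log2 values, whose sorted values agree across the 6 arrays within rounding, as quantile normalization gives, and how background was treated is not stated. It served as an alternative.

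Intensities were background-corrected with normexp (offset 50), quantile normalized and put on the log2 scale. Probes with a mean level above the median of all probes (23615 of 47231) were fitted with lmFit and eBayes in limma 3.58.1 (R 4.3.3) with group as the only term. A probe was called at a Benjamini-Hochberg adjusted p under 0.05 over all tested probes. Changes and SE of CCL2, which was not tested, come from the fit of all probes. The background limit was each array's most frequent raw intensity plus 2 SD of the values below it. The script was tested on simulated intensities. The number of arrays limits the precision.

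Gene names come from the platform annotation, which needed no change when checked through gene identifiers (30074 matched RefSeq): 30113 probes had 1 gene symbol, 8 several and 17110 none. Promoters come from RefSeq (GRCh38.p14), and the 250 bases before each start were searched on both strands, a palindrome counting once. The members and lists were chosen with earlier results of these data known. The probes named were all members, up to 6 called probes per list and direction whose groups did not overlap, the 2 largest heat shock changes by gene, and the 5 probes most like CXCL2 and IL6 in their profile. The NF-kB probes called beyond those 6 (NFKB1, NFKBIE, ICAM1 and NFKBIA), genes named because they were not called, and the cell type markers given with values were chosen after their values were seen.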

Additional observations from a re-analysis of the deposited data

How the results depend on the processing

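CXCL2 kept its direction and call under all 16 alternatives, and no called probe among the 9 changed sign. Since the 9 were chosen with these changes known, kept calls among them are description only. Median scaling gave 1030 calls over all probes (549 higher, 481 lower), with 2 of the 9 probes called lower, 0 other cytokines higher, 4 NF-kB probes lower and 0 higher, and 1 transcription or decay probe lower. An offset of 16 left 2 of the 9 called lower, moved CCL20 to -0.27, and gave 1 other cytokine lower, 0 higher and 1 receptor higher. Trend and robust eBayes left 1 of the 9, CXCL2, with 1 other cytokine lower and 1 transcription or decay probe higher. Cyclic loess, no background correction and the series matrix values each called 1 receptor higher, and called 2, 1 and 1 transcription or decay probes higher. The filter on background called 1 of these higher, and array weights called 5 lower and 2 higher. The cause was not tested. When 1 array was left out, 1995 to 2589 probes were called (1021 to 1398 lower, the fewest without untreated replicate 3), 2 to 5 of the 9 called lower, 0 to 1 other cytokine higher, 6 to 10 NF-kB probes lower and 0 to 1 higher, and 1 to 5 transcription or decay probes lower and 0 to 1 higher. CCL2, at background, was at 0.03 without MFH replicate 3.

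With the replicate number as a block 2870 probes were called over all, and the same 4 of the 9. Pearson r between arrays that share a number, after subtracting group means, was 0.0039, 0.060 and -0.036. Between arrays of unlike number it was -0.12 to 0.10. No shared effect of the number was seen, which cannot tell whether the samples were prepared in pairs. Probes near background limit what can be seen: CCL2, CCL20 and most probes of receptors and of other chemokines lay there. Still, 10 of 16 receptor genes had a tested probe.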
